A study of Mus musculus with 6 samples.

Results

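The respiratory chain genes described here are the nuclear genes that encode subunits of complexes I to V of the inner mitochondrial membrane, cytochrome c and the assembly factors of complex I. They were taken by symbol from the protein-coding rows of a mouse gene count table: symbols beginning with Nduf, Uqcr or Atp5, the genes Sdha to Sdhd, Cyc1 and Cycs, and the Cox4 to Cox8 isoforms. This gave 95 of the 32061 genes in the table. Another 8 genes whose symbols begin alike were not taken, namely the succinate dehydrogenase assembly factors Sdhaf1 to Sdhaf4, the processed pseudogenes Ndufs6b, Atp5c1-ps and Ndufb4c, and the noncoding gene Ndufb1-ps.

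The table held RNA sequencing counts from 6 samples of biliary epithelial cells, which line the bile ducts. Ducts were isolated from mouse liver, expanded as organoids in gel and then moved to flat culture on collagen, in both groups alike. In 3 samples, labelled as competent for primary cilia, the treatment was -4OHT; in the other 3, labelled as depleted of primary cilia, it was +4OHT. 4OHT commonly stands for 4-hydroxytamoxifen, a drug used to activate an inducible Cre recombinase, and the primary cilium is a solitary, antenna-like organelle that senses fluid and signals outside the cell. In the count table the columns are named PC WT (read as competent) and PC KO (read as depleted). Beyond these names, the sources used here do not give strain, age, genotype, the deleted gene, the driver of a recombinase, or the dose and time of treatment. Treatment with 4OHT and loss of cilia coincided in every sample and cannot be told apart. Nothing in the labels tells whether the 3 samples of each group are separate animals or separate cultures. The p-values therefore reflect only how far these samples differ from one another, a spread that may be technical.

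The respiratory chain passes electrons from NADH (complex I) and succinate (complex II) through ubiquinone to complex III, cytochrome c and complex IV, where oxygen is reduced. Complexes I, III and IV pump protons, and complex V, the ATP synthase, uses the resulting gradient to make ATP. Complex II is encoded wholly in the nucleus, whereas the other complexes combine nuclear subunits with subunits encoded in mitochondrial DNA. Transcription of the nuclear subunits is known to depend on nuclear respiratory factor 1 (NRF1), on the ETS family factor GABP (also called NRF2) and on YY1.

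Motifs of these 3 factors were looked up in the promoter windows of RefSeq (GRCm38.p6), each running from 250 bases before to 50 bases after a gene's start, and 75 of the 95 genes matched with 80 windows. The letters searched, on both strands, were GCGCATGCG for NRF1, CCGGAAG for the ETS family and AAGATGGCG for YY1. The stretches below are shown because they carry one or more of these motifs in genes from several parts of the chain, including Ndufaf1, whose fitted change was small. Each is printed on the strand of its gene, in lower case, with the motif in capitals in either orientation. Only bases before the RefSeq start that lie outside exons of protein-coding transcripts are printed. They cover chr6:50566570-50566719 (minus strand) for Cycs, chr17:56717686-56717761 (plus) for Ndufa11, chr9:50603850-50603909 (minus) for Sdhd, chr10:80406831-80406971 (minus) for Uqcr11, chr16:84835024-84835123 (minus) for Atp5j and chr2:119662835-119662984 (minus) for Ndufaf1.
Cycs: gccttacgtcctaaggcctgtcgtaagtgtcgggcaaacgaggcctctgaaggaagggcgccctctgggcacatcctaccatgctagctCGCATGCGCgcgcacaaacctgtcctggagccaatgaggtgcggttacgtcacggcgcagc
Ndufa11: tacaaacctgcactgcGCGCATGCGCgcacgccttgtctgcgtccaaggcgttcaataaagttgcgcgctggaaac
Sdhd: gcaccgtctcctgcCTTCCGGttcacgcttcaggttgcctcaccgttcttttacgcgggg
Uqcr11: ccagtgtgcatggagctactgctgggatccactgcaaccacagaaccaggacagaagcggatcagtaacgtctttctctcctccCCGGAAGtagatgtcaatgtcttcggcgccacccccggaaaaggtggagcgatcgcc
Atp5j: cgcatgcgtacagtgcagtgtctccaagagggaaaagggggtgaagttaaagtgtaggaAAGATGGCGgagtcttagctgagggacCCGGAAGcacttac
Ndufaf1: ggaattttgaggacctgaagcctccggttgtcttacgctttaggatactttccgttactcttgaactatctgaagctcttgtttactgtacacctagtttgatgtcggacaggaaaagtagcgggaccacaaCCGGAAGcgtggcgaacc
Cycs and Ndufa11 carry the NRF1 motif, Sdhd, Uqcr11 and Ndufaf1 the ETS motif, and Atp5j first the YY1 and then the ETS motif. The window of Uqcr11 also holds an NRF1 match, outside the stretch printed. In Ndufa11 the capitals cover overlapping matches on both strands. A match describes the letters only and is not evidence of binding.

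Of the 95 genes, 89 had enough counts to be tested and 6 isoform genes did not. In depleted cells 85 of the 89 were lower and 0 were higher at an adjusted p below 0.05 (edgeR quasi-likelihood test, Benjamini-Hochberg adjustment over the 13839 genes tested), and 4 did not pass. Among all genes tested, 34.3% were lower and 34.9% higher by the same criterion. The fitted change was below 0 in each of the 89 genes, with a median (log2, depleted over competent) of -0.63 and a range from -1.46 for Sdhc to -0.03 for Cox7a2l. The median over all genes tested was -0.01. In 86 of the 89 genes every depleted sample lay below every competent sample, against 36.1% of all genes tested. Falls above 1.5-fold were found for 50 of the 89 genes (11.6% of all genes tested) and above 2-fold for 15 (2.49% of all genes tested).

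Summed over the 95 genes, transcript levels in CPM (counts scaled to library size, with TMM factors) were 7866, 7684 and 7737 without 4OHT (competent) and 5016, 5084 and 5258 with it (depleted). The groups did not overlap, and the depleted mean was 65.9% of the competent mean (7763 ± 93.6 against 5119 ± 125 CPM, SD, n = 3 each). These genes took 0.795% to 0.832% of all counts in competent and 0.482% to 0.502% in depleted samples. In bulk RNA, fewer cells of a type and less RNA per cell cannot be told apart. The plot of summed levels sets the complexes side by side.

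**Figure D1:**
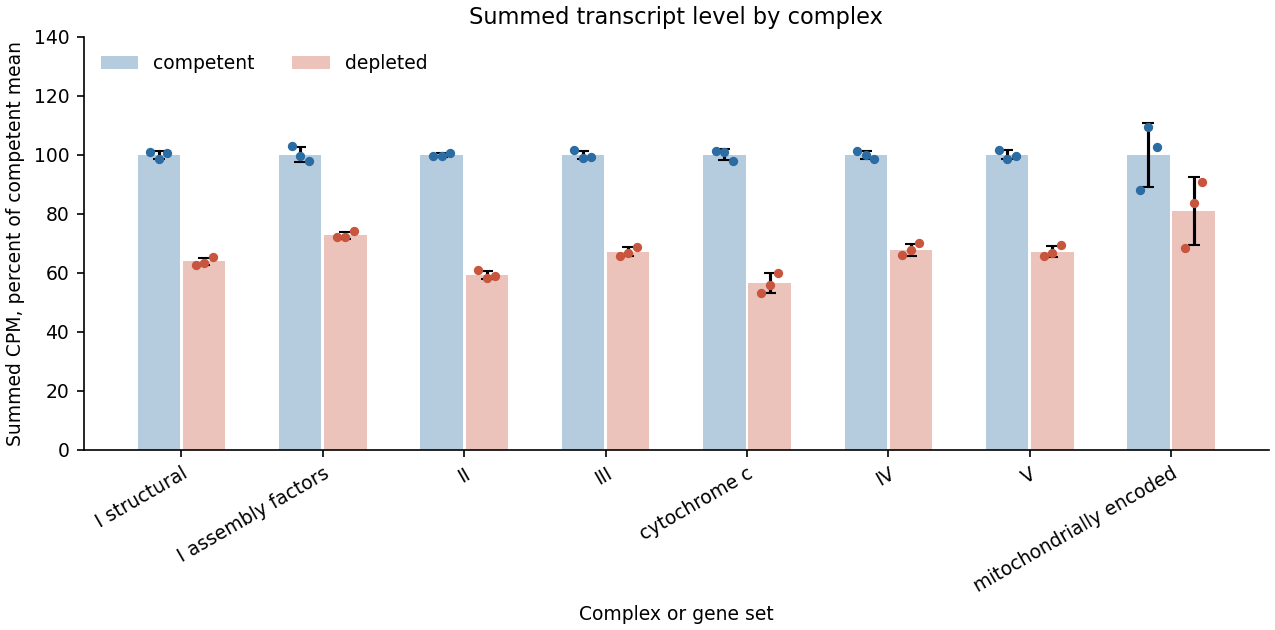
Summed CPM of each complex or gene set as a percentage of its mean in competent samples; bars are means, points are the 3 samples of each group and error bars are the SD. The nuclear-encoded sets lie between 56.4% and 72.7% in depleted samples without overlap between groups, while the sum of the mitochondrially encoded mRNAs lies at 80.9% and its groups overlap.

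Total counts per sample ran from 26293486 to 36998935, with both ends in the depleted group. A floor of 3 counts corresponded to 0.0797 to 0.119 CPM, and floors cover counting error only. Each of the 7 biliary markers examined was detected, with Krt7 at 3150 CPM in competent and 2471 CPM in depleted cells, although Krt19 was low at 12.5 and 8.33 CPM. The summed level of the 7 biliary markers was 5950 to 6040 CPM in competent and 4267 to 4519 CPM in depleted samples. Of 6 fibroblast and stellate markers only Col1a1 had enough counts to be tested, Col1a2 and Col3a1 were at 0 in every sample, and the list summed to 1.27 to 1.56 CPM in competent and 2.72 to 3.49 CPM in depleted samples. Of 5 leukocyte markers only Cd68 could be tested, with list sums of 3.32 to 3.88 against 5.27 to 6.18 CPM. Hepatocyte markers (3 of 6 tested) summed to 18.9 to 25.9 against 16.3 to 18.1 CPM, and the 4 endothelial markers to at most 0.436 CPM in any sample. The part of these markers in the results below was not tested.

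Complex I takes electrons from NADH and is the largest of the complexes. All 36 of its structural subunit genes fell, by a median of -0.71 on the log2 scale within a range from -1.40 to -0.27. Their summed level in depleted cells was 63.8% of that in competent cells (1236 ± 25.3 against 1937 ± 26.9 CPM, SD, n = 3 each). The 7 core subunits, which carry the flavin, the iron-sulphur clusters and the ubiquinone site, had a median of -0.51 (7 of 7 lower), and the accessory subunits one of -0.75 (29 of 29 lower). This difference between classes was not tested.

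Among the core subunits, Ndufv1, which holds the flavin and the NADH site, stood at 124, 120 and 121 CPM against 85.5, 86.8 and 86.2 CPM (log2 change -0.50, adjusted p = 1.11e-07, edgeR). The groups were far apart relative to the spread within each. The core subunit with the deepest fall was Ndufs8, a carrier of iron-sulphur clusters, at a log2 change of -0.86, and the one with the smallest was Ndufs1 at -0.40.

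The accessory subunits surround the core and include the 3 deepest falls of complex I. Ndufb3 (chromosome 1, 58586384 to 58595964, plus strand, GRCm38), an accessory subunit of the membrane arm, stood at 40.4, 42.0 and 40.9 CPM in competent and 13.4, 16.2 and 16.9 CPM in depleted samples. That is a 2.63-fold fall (log2 change -1.40, SE 0.073, adjusted p = 1.80e-09, edgeR), and every depleted sample was well under the lowest competent sample. Ndufb3 has a near-identical copy, Gm45930, in the genome, with which reads could be shared in counting. Ndufa5, an accessory subunit of the peripheral arm, fell 2.30-fold, from 17.4 ± 0.892 to 7.57 ± 0.477 CPM (SD, n = 3; adjusted p = 2.23e-08, edgeR). Ndufb7, on the intermembrane side of the membrane arm, fell 2.23-fold, from 43.0 ± 1.38 to 19.3 ± 0.537 CPM (adjusted p = 5.62e-10, edgeR).

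By symbol series, the 10 Ndufb genes had a median log2 change of -0.78 and the 13 Ndufa genes, with Ndufab1 counted among them, -0.68. The 8 Ndufs genes had -0.65, the 3 Ndufv genes -0.50 and the 2 Ndufc genes -0.93. Every gene of these series passed as lower. The smallest falls among accessory subunits were those of Ndufa10 (log2 change -0.27), Ndufab1, the mitochondrial acyl carrier protein (-0.31), and Ndufa6 (-0.32). The last of these lost its call when the trend with transcript length was removed (log2 change -0.10, adjusted p = 0.0665, edgeR).

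The 8 complex I assembly factors, proteins that help to build the complex but are not part of it, were lower too for the most part as fitted. Among the 8, 6 fell, 2 failed the test and the median log2 change was -0.42, where 34.3% of all genes tested fell. Their summed level was 72.7% of that in competent cells (99.9 ± 2.58 against 72.6 ± 1.24 CPM). With the length trend removed, 4 of the 8 were lower and the median was -0.27, where 39.0% of all genes tested were lower. Whether assembly factors differ from structural subunits was not tested.

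Ndufaf3 and Ndufaf4, which act together early in assembly, fell most among the assembly factors. Ndufaf3 stood at 16.1, 16.1 and 15.6 CPM in competent and 10.5, 8.88 and 8.84 CPM in depleted samples (log2 change -0.77, SE 0.082, adjusted p = 1.93e-06, edgeR). Ndufaf4 stood at 22.8, 21.5 and 20.3 CPM against 12.04, 13.8 and 16.2 CPM (log2 change -0.61, adjusted p = 5.13e-05, edgeR). Neither gene's groups overlapped. Ndufaf8 fell with a log2 change of -0.59 (adjusted p = 0.000261, edgeR), and Ndufaf7, an arginine methyltransferase, with -0.37 (adjusted p = 0.000178, edgeR). Ndufaf2, an assembly factor related to Ndufa12, fell with -0.47 (adjusted p = 0.000690, edgeR), but 65.6% of its exon length overlaps a gene on the opposite strand, and its call was lost with the length trend removed (log2 change -0.24, adjusted p = 0.0522, edgeR), though not when the union of all exons was taken as the length (-0.45, adjusted p = 0.000707, edgeR).

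The other assembly factors had the smallest fitted changes of the class. Ndufaf1 passed narrowly (log2 change -0.23, adjusted p = 0.0309, edgeR). That call was lost with DESeq2 (adjusted p = 0.0668), with the length trend removed (log2 change -0.07), and without competent replicate 1, depleted replicate 1 or depleted replicate 2 (log2 changes -0.15, -0.22 and -0.20). Ndufaf5, which hydroxylates an arginine of a core subunit, stood at 5.78, 5.40 and 5.55 CPM against 5.27, 4.89 and 5.21 CPM and did not pass (log2 change -0.12, adjusted p = 0.314, edgeR). Ndufaf6 stood at 3.79, 3.73 and 4.81 CPM against 3.25, 4.68 and 3.57 CPM, with groups that overlapped (log2 change -0.10, SE 0.16, adjusted p = 0.610, edgeR). For Ndufaf6 the direction turned without competent replicate 3 (log2 change 0.03), and for Ndufaf5 and Ndufaf6 it turned with the length trend removed (0.12 and 0.15).

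**Figure D2:**
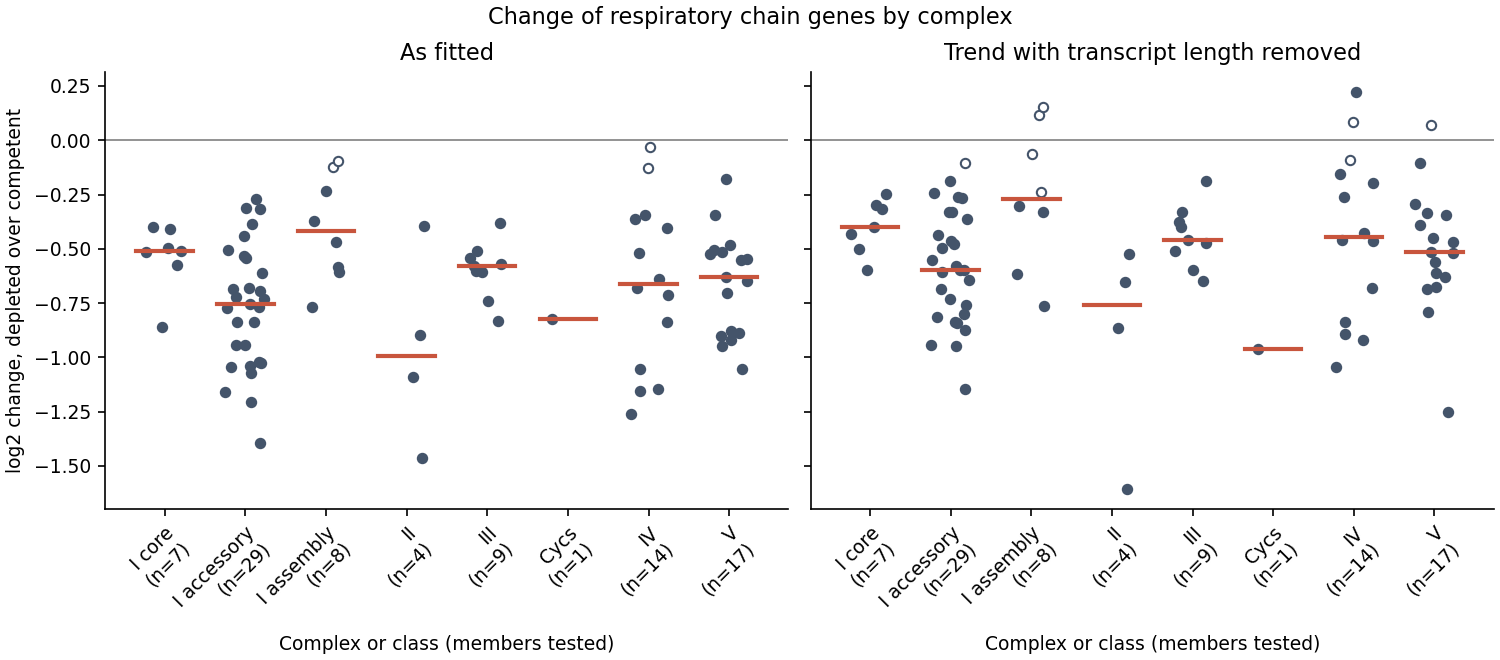
Log2 change (depleted over competent) of each gene tested, by complex or class, as fitted (left) and with the trend with transcript length removed (right). Filled points have an adjusted p below 0.05, open points do not, and bars are medians. Without the correction all 89 points lie below 0, and with it 80 genes pass as lower and 1, in complex IV, as higher.

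Complex II, succinate dehydrogenase, links the tricarboxylic acid cycle to the chain, and its 4 genes had the lowest median log2 change of the 5 complexes, -0.99. Its summed level fell to 59.2% of the competent mean (428 ± 2.78 against 254 ± 5.79 CPM). The gene with the deepest fall among all 89 was Sdhc (chromosome 1, 171127165 to 171150603, minus strand), which encodes the large membrane anchor. Sdhc stood at 98.8, 96.6 and 96.7 CPM in competent and 35.1, 33.8 and 37.0 CPM in depleted samples, a 2.76-fold fall (log2 change -1.46, SE 0.048, adjusted p = 1.83e-11, edgeR). The spread within either group was small beside this gap. Sdhd, the small membrane anchor whose promoter stretch is printed above, stood at 84.3, 83.6 and 84.6 CPM against 38.5, 38.5 and 41.4 CPM (2.13-fold, adjusted p = 2.68e-10, edgeR). Thus both anchors fell by more than 2-fold. The iron-sulphur subunit gene Sdhb fell 1.86-fold, from 38.6 ± 2.32 to 20.7 ± 1.21 CPM (adjusted p = 3.67e-08, edgeR). The flavoprotein gene Sdha fell 1.32-fold, from 208 ± 1.29 to 158 ± 6.98 CPM (adjusted p = 2.42e-06, edgeR). Sdha and Sdhc are among the 10 genes of the group with main transcripts of 2000 nt or more, and removal of the length trend made their log2 changes more negative (-0.53 and -1.60).

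All 9 complex III genes fell, within the narrow range of -0.83 to -0.38 and with a median log2 change of -0.58. Their summed level was 67.0% of that in competent cells. The core protein genes Uqcrc1 and Uqcrc2, were the most abundant by CPM. Uqcrc1 stood at 153, 151 and 147 CPM against 102, 99.5 and 102 CPM (log2 change -0.57, adjusted p = 2.83e-08, edgeR). Uqcrc2 stood at 152, 147 and 144 CPM against 96.4, 103 and 103 CPM (log2 change -0.54, adjusted p = 1.28e-07, edgeR). The deepest fall was that of the small subunit gene Uqcr11, from 51.5 ± 1.19 to 28.9 ± 0.676 CPM (1.78-fold, adjusted p = 4.99e-09, edgeR), which has 2 near-identical copies elsewhere in the genome. Cyc1, which encodes cytochrome c1, fell 1.67-fold (adjusted p = 1.17e-08, edgeR), and Uqcrfs1, the Rieske iron-sulphur protein, fell least (log2 change -0.38).

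Cycs encodes cytochrome c, the soluble carrier between complexes III and IV that also acts in apoptosis once released. It stood at 94.9, 94.6 and 91.7 CPM in competent and 49.9, 52.4 and 56.3 CPM in depleted samples, without overlap (1.77-fold, SE 0.050 on the log2 scale, adjusted p = 7.77e-09, edgeR). Its main transcript is 3123 nt long, and with the length trend removed its log2 change moved from -0.82 to -0.96. Cycs has 4 near-identical copies in the genome that could share its reads.

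Complex IV, cytochrome c oxidase, has 20 genes in the group because several subunits exist as paralogs with tissue-restricted forms. Among the 14 tested, 12 fell and 2 failed the test. The median log2 change was -0.66, and the summed level was 67.8% of that in competent cells. The deepest fall was that of Ndufa4 (chromosome 6, 11900292 to 11907497, minus strand), first assigned to complex I and now known as a component of complex IV. Ndufa4 stood at 147, 143 and 143 CPM in competent and 58.7, 60.7 and 61.3 CPM in depleted samples (2.39-fold, SE 0.041 on the log2 scale, adjusted p = 1.88e-11, edgeR). Cox7b and Cox7a2, small subunits with a single membrane helix, followed. Cox7b stood at 76.4, 74.9 and 79.4 CPM against 33.4, 34.4 and 35.7 CPM (2.23-fold, adjusted p = 2.17e-10, edgeR). Cox7a2 stood at 76.2, 74.3 and 70.3 CPM against 32.4, 32.1 and 35.2 CPM (2.21-fold, adjusted p = 6.35e-10, edgeR). In each of these 3 genes the depleted samples lay far below the competent ones. Cox6b1, on the intermembrane side, fell 2.08-fold, from 140 ± 4.77 to 67.3 ± 5.02 CPM (adjusted p = 1.51e-09, edgeR).

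The most abundant complex IV transcripts by CPM had smaller fitted changes. Cox4i1, the ubiquitous form of the largest nuclear-encoded subunit, stood at 310, 322 and 304 CPM against 245, 245 and 248 CPM (log2 change -0.34, adjusted p = 5.27e-06, edgeR). With the length trend removed it no longer passed (log2 change -0.09, adjusted p = 0.0629, edgeR). Cox7a2l (chromosome 17, 83501918 to 83517330, minus strand), a Cox7a relative known for joining complexes III and IV in supercomplexes, stood at 181, 173 and 178 CPM in competent and 162, 175 and 184 CPM in depleted samples. The groups overlapped fully, and the log2 change was -0.03 (95% interval -0.13 to 0.07, adjusted p = 0.604, edgeR). With the length trend removed Cox7a2l was the single gene of the 89 that passed as higher (log2 change 0.22, adjusted p = 0.000149, edgeR), where 30.4% of all genes tested were higher, and without depleted replicate 1 its log2 change was 0.02. It has a near-identical copy, Gm6969.

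Within the paralog sets the broadly expressed forms carried nearly all counts. The muscle or tissue-restricted forms Cox4i2, Cox6a2, Cox7b2 and Ndufa4l2 had at most 3 counts in any sample, and Cox8b and Cox8c had 0 in every sample, so no fold change is given for these 6. Cox7a1, the form typical of heart and muscle, was near 1 CPM, at 0.969, 1.302 and 1.301 CPM against 0.594, 0.436 and 0.934 CPM. It passed as lower (log2 change -0.84, adjusted p = 0.0195, edgeR), but not with DESeq2 (adjusted p = 0.0505) or without competent replicate 2, competent replicate 3, depleted replicate 1 or depleted replicate 2 (log2 changes -0.78, -0.78, -0.78 and -0.60). The 4 muscle markers examined summed to at most 0.0792 CPM in any sample. Cox6b2, known from testis, overlapped between groups (log2 change -0.13, adjusted p = 0.650, edgeR), and without depleted replicate 3 its log2 change was 0.11. Cox6a1 (log2 change -0.64) and Cox8a (-0.40) fell. The ratio of Cox7a2l to Cox7a2 in CPM was 2.38, 2.33 and 2.54 in competent and 5.01, 5.45 and 5.23 in depleted samples, a 2.17-fold change of the mean. The exact two-sided permutation test gave p = 0.1, the smallest that 3 samples against 3 can give. CPM values of different genes are not scaled for length, so only the change of such a ratio can be read.

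**Figure D3:**
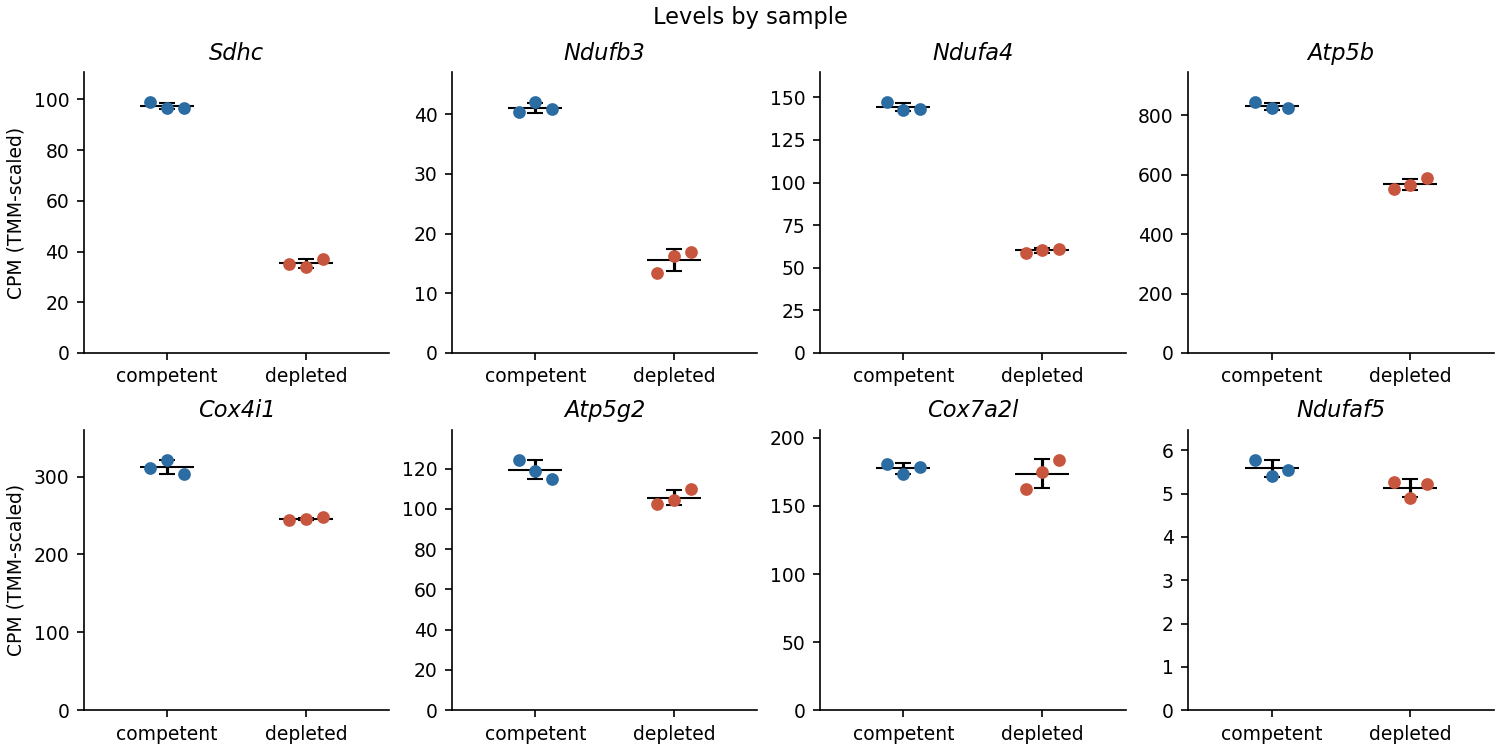
Level of 8 genes in each of the 6 samples, in CPM scaled by TMM, with black bars for the mean and SD (n = 3); each panel has its own axis from 0. Sdhc, Ndufb3 and Ndufa4 fell by more than 2-fold, Atp5b, Cox4i1 and Atp5g2 had smaller falls, and the samples of Cox7a2l overlap.

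Complex V, the ATP synthase, makes ATP in its soluble F1 part, which a rotor containing the c ring drives and a peripheral stalk holds in place. All 17 of its genes fell, with a median log2 change of -0.63, and the summed level was 67.1% of that in competent cells (2784 ± 45.1 against 1869 ± 53.6 CPM). Within it, the 5 F1 genes had a median of -0.51, the 4 genes of the peripheral stalk -0.67, the 4 small membrane subunits -0.89 and the 3 c-ring genes -0.92. The differences between these classes were not tested. Atp5b, the catalytic beta subunit, was the most abundant of the 95 genes by CPM. Per kilobase of main transcript its level was 434 CPM per kb in competent and 297 in depleted cells, where Cox4i1 had 408 and 321. Atp5b stood at 844, 825 and 824 CPM in competent and 551, 566 and 588 CPM in depleted samples (1.46-fold, adjusted p = 9.65e-08, edgeR). The alpha subunit gene Atp5a1 stood at 576, 556 and 565 CPM against 397, 403 and 413 CPM (1.40-fold, adjusted p = 2.00e-07, edgeR). Atp5k, one of the small membrane subunits, fell 1.93-fold, from 39.0 ± 1.32 to 20.2 ± 0.954 CPM (adjusted p = 6.57e-09, edgeR).

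The 3 c-ring genes encode the same mature protein with different import sequences, and their fitted log2 changes ran from -1.05 to -0.18. Atp5g1 stood at 53.2, 50.2 and 50.8 CPM against 23.3, 24.3 and 26.4 CPM (2.08-fold, adjusted p = 2.35e-09, edgeR). Atp5g3 stood at 176, 172 and 175 CPM against 89.6, 89.2 and 97.0 CPM (1.89-fold, adjusted p = 8.04e-10, edgeR). In both genes the groups were well apart. Atp5g2 (chromosome 15, 102662864 to 102672352, minus strand) stood at 125, 119 and 115 CPM against 102, 104 and 110 CPM, which do not overlap but lie close (log2 change -0.18, SE 0.045, adjusted p = 0.00317, edgeR). With the length trend removed Atp5g2 did not pass and its log2 change was 0.07 (adjusted p = 0.122, edgeR). The CPM ratio of Atp5g2 to Atp5g1 was 2.34, 2.37 and 2.27 in competent and 4.39, 4.29 and 4.16 in depleted samples, and that of Atp5g2 to Atp5g3 was 0.709, 0.694 and 0.659 against 1.14, 1.17 and 1.13. Each gave p = 0.1 in the exact two-sided permutation test, again the smallest possible. These ratios, like that of Cox7a2l to Cox7a2, were chosen after the values had been seen, and Atp5g2 has 2 near-identical copies in the genome.

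The fitted change depended on transcript length across all genes, so the group was set beside other protein-coding genes of the same transcript length. Main transcripts of the 89 genes tested were 371 to 4715 nt long, with a median of 908 nt. Under 600 nt, 18 of 19 respiratory chain genes fell with a median log2 change of -0.58, against 57 of 140 other genes and a median of -0.17. From 600 to under 1000 nt, 29 of 29 fell with a median of -0.84, against 369 of 555 and -0.48. In both classes the median of the respiratory chain genes lay below that of other genes as short, but the ranges overlapped. This difference was not tested. From 1000 to under 2000 nt, 28 of 31 fell with a median of -0.57, against 1362 of 2585 and -0.26. At 2000 nt or more, 10 of 10 fell with a median of -0.55, whereas 2662 of 9424 other genes fell and their median was 0.12.
In the middle of the group's length range, between 623 and 1520 nt, 42 of 45 respiratory chain genes fell (median -0.72), against 1070 of 1724 other genes (62.1%, median -0.40). Across genes, which are not independent replicates and which share the same 6 libraries, the log2 change had a Spearman's rho with transcript length of 0.19 among the 89 genes and 0.33 among 12704 other protein-coding genes.

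When the trend with transcript length was removed in each library, 80 of the 89 genes passed as lower and 1 as higher. Of all genes tested, 39.0% and 30.4% did. The median log2 change of the 89 genes was then -0.48, against -0.06 over all genes tested. The genes that no longer passed as lower were Cox4i1, Atp5g2, Ndufa6, Ndufaf1 and Ndufaf2. When the union of all exons of a gene was taken as its length, 83 passed as lower and 1 as higher, and Cox4i1 (log2 change -0.16), Ndufa6 (-0.18) and Ndufaf2 (-0.45) passed as lower. With the correction by main transcript length the medians were -0.40 for the core and -0.60 for the accessory subunits of complex I. They were -0.76 for complex II, -0.46 for complex III, -0.44 for complex IV and -0.51 for complex V.

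**Figure D4:**
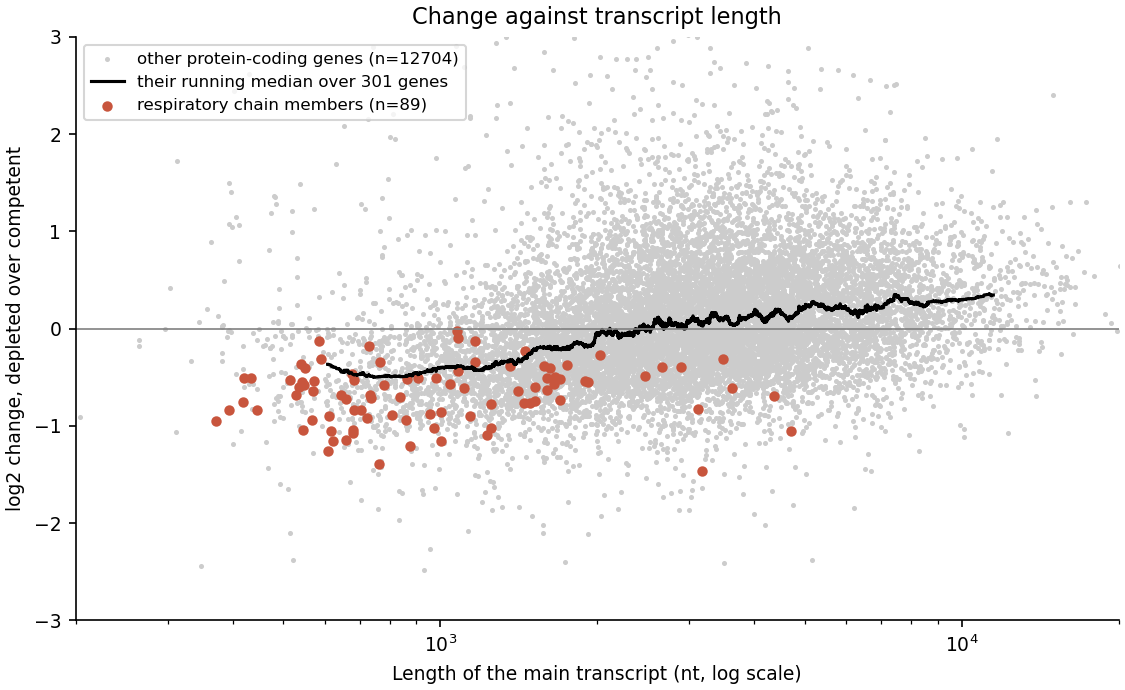
Log2 change (depleted over competent) against the length of the main transcript in nt on a log axis, for the respiratory chain genes and for other protein-coding genes with their running median; 59 other genes lie outside the plotted range. The line for other genes starts at about 600 nt, lies below 0 for shorter and above 0 for longer transcripts, and most respiratory chain genes in its range lie under it.

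The lengths are those of annotated transcripts and not of the forms present in these cells. Of the 95 genes, 26 have a near-identical copy elsewhere in the genome (at least 95% identity over at least 150 nt), mostly processed pseudogenes. Of these 26, 25 fell with a median log2 change of -0.61, and of the 63 tested genes without such a copy 60 fell with a median of -0.65. Genes with over 20% of their exon length overlapped on the opposite strand numbered 4 (Atp5o, Ndufa13, Ndufaf2 and Ndufb6), all of which fell; whether counting used strand is not stated in the sources used here.

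The share of promoter windows holding each motif was set beside that of all windows of the table. The NRF1 motif was found in 11 of the 80 windows (13.8%, against 1.75% of all 32851 windows), the ETS motif in 18 (22.5% against 8.86%) and the YY1 motif in 8 (10.0% against 1.40%). Medians of genes with and without a motif were set side by side, with no test. Genes with the NRF1 motif had a median log2 change of -0.64 (11 genes), and those without it -0.68 (62 genes). For the ETS motif the medians were -0.68 with (18 genes) and -0.68 without (55 genes), and for YY1 they were -0.82 (8 genes) and -0.64 (65 genes). Of the genes printed above, Cycs, Ndufa11, Sdhd, Uqcr11 and Atp5j fell with log2 changes of -0.82, -1.04, -1.09, -0.83 and -0.89, whereas Ndufaf1, with an ETS motif, had -0.23.

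Transcription factors and coactivators of the respiratory chain moved in both directions. Among 12 tested, 2 fell, 5 rose and 5 failed the test, and the median log2 change was 0.06 (34.3% of all genes tested fell and 34.9% rose). The coactivator genes Ppargc1a and Ppargc1b, which encode PGC-1alpha and PGC-1beta and promote mitochondrial biogenesis, rose from low levels. Ppargc1a went from 1.161 ± 0.253 to 2.96 ± 0.329 CPM (log2 change 1.33, adjusted p = 3.60e-05, edgeR), and Ppargc1b from 0.251 ± 0.0753 to 1.01 ± 0.304 CPM (log2 change 1.95, adjusted p = 0.000220, edgeR). Nrf1 itself rose (log2 change 0.33), and Gabpa, the DNA-binding subunit of GABP, fell (-0.23). Of the genes for transcription of mitochondrial DNA, the RNA polymerase gene Polrmt (log2 change 0.61) and Tfb1m (0.73), which encodes a ribosomal RNA methyltransferase, rose and the initiation factor gene Tfb2m fell (-0.61). Tfam, Yy1, Esrra, Gabpb1 and Pprc1 did not pass, with log2 changes of -0.10, -0.02, 0.10, 0.02 and 0.02. The balance of this list depended on the length correction: with the trend removed 5 were lower and 5 higher (median -0.02), since Tfam (log2 change -0.28), Yy1 (-0.26) and Pprc1 (-0.19) then passed as lower, and by union exon length 6 were lower and 4 higher.

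The 13 mRNAs encoded in mitochondrial DNA, which complete complexes I, III, IV and V, did not move as one. Of the 13, 8 fell, 1 rose and 4 did not pass, and the median log2 change was -0.79. Among all genes tested, 34.3% fell and 34.9% rose. The complex I subunit mt-Nd3 fell most, from 240 ± 7.92 to 44.2 ± 6.11 CPM (log2 change -2.44, adjusted p = 1.17e-11, edgeR). The cytochrome b mRNA mt-Cytb (log2 change -1.13) fell, the complex IV mRNA mt-Co3 fell 2-fold, and mt-Atp8 fell with a log2 change of -0.91. The catalytic subunit of complex IV, mt-Co1, rose from 5453 ± 718 to 6671 ± 1001 CPM (log2 change 0.29, adjusted p = 0.0242, edgeR), with overlapping groups. The complex I mRNAs mt-Nd4, mt-Nd4l, mt-Nd5 and mt-Nd6 did not pass, with log2 changes of 0.08, -0.01, 0.17 and -0.07. After removal of the length trend mt-Nd4 (log2 change 0.26) and mt-Nd5 (0.21) also passed as higher. This gave 8 lower and 3 higher, where 39.0% and 30.4% of all genes tested were. The libraries were made from poly-A selected RNA, per the labels' protocols.

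Assembly factors of the chain outside the Ndufaf series moved in both directions. Of 42 tested among 43, 22 fell (52.4%), 3 rose and 17 failed the test, and the median log2 change was -0.20. Among all genes tested, 34.3% fell and 34.9% rose. The median main transcript of these factors was 1948.5 nt long. Of other protein-coding genes, 52.7% fell from 1000 to under 2000 nt (median -0.26) and 28.2% at 2000 nt or more. Whether the list differs from other genes of its length was not tested. Those with the deepest falls were the complex II factor Sdhaf4 (log2 change -0.97), the complex III factor Uqcc2 (-0.92), the complex IV factor Coa3 (-0.88) and the ATP synthase factor Tmem70 (-0.79). The copper chaperone gene Cox11 (log2 change 0.42), the haem synthesis gene Cox10 (0.30) and Tmem186 (0.37) rose. After removal of the length trend 21 were lower and 5 higher, where 39.0% and 30.4% of all genes tested were. Cox10 then did not pass (log2 change 0.17, adjusted p = 0.0592, edgeR).

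The tricarboxylic acid cycle, which supplies NADH and succinate to the chain, also moved down. Of its 13 genes, 12 fell and 1, Ogdh, did not pass (log2 change -0.02, adjusted p = 0.659, edgeR), and the median was -0.33. Among all genes tested, 34.3% fell. Ogdh passed as lower too once the length trend was removed (log2 change -0.19). Then 13 of 13 were lower (39.0% of all genes tested), and the median was -0.42. The deepest falls were those of Suclg1, a subunit of succinate-CoA ligase (log2 change -0.86), the fumarase gene Fh1 (-0.58), Idh3a of isocitrate dehydrogenase (-0.56) and the malate dehydrogenase gene Mdh2 (-0.56).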

How the data were processed

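The authors deposited 1 table of unnormalized whole-number read counts, with genes in rows and samples in columns; columns named WT were read as cilia competent and KO as cilia depleted. The submitters' processing notes list STAR 2.7.1a, featureCounts, cutadapt 1.16 and GRCm38, among others; the annotation and strand setting of the counting are not given in the sources used here. Libraries were directional and poly-A selected, per the labels' protocols. Of 32061 gene identifiers, 32009 were found in GENCODE M21, which gave biotype, coordinates and transcript length, and 11507 genes had no counts. The table had 0 columns of other samples.

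The test was that of edgeR 4.0.16, run under R 4.3.3 (filterByExpr, TMM scaling, quasi-likelihood F-test, two-sided, group as the only term, 3 samples against 3, Benjamini-Hochberg over 13839 genes, threshold 0.05). This is the test behind each adjusted p unless another tool is named. TMM factors lay at 1.04 to 1.06 (competent) and 0.954 to 0.960 (depleted). The common biological coefficient of variation was 5.20%. No 2 samples agreed within sampling noise (chi-square per degree of freedom at least 5.54). The code was tested on simulated counts. For the length trend, each gene's mean log2(CPM + 0.5) over all samples was subtracted from its value in each library. A loess curve of these deviations on main transcript length, fitted in each library, was used as an offset. Alternatives were DESeq2 1.42.0, limma-voom (limma 3.58.1), scaling by DESeq2-style or upper-quartile factors, other filters and thresholds, a replicate block, leaving out each sample in turn, and, added after the data were seen, the length correction with the union of all exons.

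The genes, lists and tests were chosen with earlier results of these data known. Named genes are, for each complex (III with cytochrome c), the 2 with the highest mean CPM and the 3 with the largest changes at an adjusted p below 0.05 and a mean log2 CPM of at least 2; any that rose; the assembly factors; the paralog sets; and up to 4 genes of each other list. Not every gene that the rule takes is reported here. Any other gene named was chosen after its values were seen.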

Additional observations from a re-analysis of the deposited data

How the results depend on the processing

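The counts of 85 lower and 0 higher genes stayed within 1.5 times, and the median log2 change of -0.63 within the spread between replicates, with DESeq2-style scaling, limma-voom, DESeq2, both other filters and an adjusted p below 0.01 (83 to 85 lower). With upper-quartile scaling, which moved the median of all genes to -0.06, the median of the group was -0.68. Requiring a fold change over 1.5 left 50 lower. With the length trend removed 1 gene was higher and the median was -0.48; with the union of all exons as length, 1 was higher and the median was -0.56. By union length the medians of other protein-coding genes were -0.090 under 600 nt, -0.53 from 600 to under 1000 nt, -0.36 from 1000 to under 2000 nt and 0.054 at 2000 nt or more. Leaving out 1 sample at a time gave 83 to 85 lower, 0 higher and medians of -0.66 to -0.61.

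For the 38 tested genes under the naming rule, over 15 settings (14 for Cox7a1, which a filter of 1 CPM in 3 samples removed), direction and call held in 543 cases, 14 lost the call and 12 reversed. With the length trend removed log2 changes above 0 were 0.22 for Cox7a2l, 0.12 for Ndufaf5, 0.15 for Ndufaf6, 0.082 for Cox6b2 and 0.069 for Atp5g2; with the union length they were 0.16 for Cox7a2l, 0.012 for Ndufaf5, 0.12 for Ndufaf6 and 0.094 for Cox6b2. Leave-one-out ranges that crossed 0 were -0.27 to 0.026 for Ndufaf6, -0.074 to 0.017 for Cox7a2l and -0.26 to 0.11 for Cox6b2. The cause of these changes was not tested.

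Correlations of same-numbered samples' deviations were -0.03, 0.02 and -0.01, and those of other pairs ran from -0.11 to 0.11. They showed no pairing by replicate number. With 3 samples per group they cannot tell whether same-numbered samples shared an animal or culture. With the replicate block 85 genes were lower, 0 higher, and the median was -0.63. Near the floor of 3 counts, at 0.0797 to 0.119 CPM, the 6 untested isoform genes could not be compared.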
